A study of Mus musculus with 12 samples.

Results

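RNA-Seq of AtT-20 cells that express Pax7 Q-GL- was set against RNA-Seq of AtT-20 cells that express Pax7 Q-GL+, with 2 libraries of each, so that 4 of the 12 libraries analysed carried the comparison. Both proteins lack the glutamine (Q) of the paired domain, a DNA-binding domain of Pax7, and only the Q-GL+ form has the glycine-leucine insertion (GL), so the comparison is that of cells without GL over cells with GL in a background without Q. The genes were those with at least 1 FPKM in at least 2 of the 4 libraries, which held for 12044 of the 16385 genes in the table. The filter used the same values that were then compared. A gene under 1 FPKM in both libraries of 1 group was thus tested only because it reached 1 FPKM in the other group. Named genes of this kind include Il1b, Kif21b, Cabp7, Cxcl14, Rspo4, Zfp92, Lipc and Serpina1f, and their p-values are not independent of the filter. FPKM are fragments scaled to gene length and library total. AtT-20 is a mouse pituitary tumour line labelled as corticotrope, grown in serum-containing medium. In both groups the protein was brought in by a retroviral vector that drives it from the CMV promoter with Flag tags at both ends, as the methods describe the Pax7 constructs, and the Geneticin-resistant colonies of an infection were pooled. The other 8 libraries, of cells with Pax7 Q+GL+, Pax3, the Pax7 form labelled 465 or a Pax7 labelled NoTag, served to estimate the spread. The methods call the libraries of a group biological replicates and do not say that they come from separate infections, and all p-values rest on the spread between libraries, which may be technical.

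Pax7 is a transcription factor with a paired domain and a homeodomain. It acts as a pioneer factor, which means that it can bind sites in closed chromatin that then open. In the pituitary it marks melanotropes of the intermediate lobe, which like corticotropes make the hormone precursor POMC but cleave it further, and in muscle it marks satellite cells. The Q and GL forms arise by the choice between neighbouring splice sites. The annotated mouse Pax7 transcripts, in GENCODE M21 on GRCm38, show the GL choice directly, and the junction is printed because it is the change that the comparison turns on. Exon 4 lies on the minus strand of chromosome 4. It spans chr4:139828576-139828704 in transcript Pax7-201 and chr4:139828576-139828710 in transcript Pax7-202, whose exon starts 6 bases earlier. The last 30 bases of exon 3 and the first 30 shared bases of exon 4 are given 5′ to 3′, with the 6 bases that only Pax7-202 holds in capitals.
Pax7-201: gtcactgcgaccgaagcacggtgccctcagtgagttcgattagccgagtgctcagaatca
Pax7-202: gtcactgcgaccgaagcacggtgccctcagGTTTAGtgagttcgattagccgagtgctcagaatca
These are reference transcripts, and the sequences of the introduced constructs were not used here.

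The introduced gene was at like levels on both sides. Pax7 was at 95.2 and 93.9 FPKM in Q-GL- libraries, against 104 and 102 FPKM in Q-GL+ libraries, a log2 fold change of -0.12 that did not pass the test (adjusted p = 0.325). Tbx19, which encodes Tpit, the factor that specifies POMC-producing cells, was at 117 and 116 FPKM in Q-GL- libraries, against 129 and 119 FPKM in Q-GL+ libraries (adjusted p = 0.634). With quantile normalization, which gives all libraries the same distribution of values, both passed as lower in Q-GL- cells, Pax7 at -0.18 (adjusted p = 0.0322) and Tbx19 at -0.15 (adjusted p = 0.0413). As a check of the corticotrope label, Pomc was at 8622 and 9158 FPKM in Q-GL- libraries, against 7226 and 6593 FPKM in Q-GL+ libraries (adjusted p = 0.139), while Crhr1, the receptor for corticotropin-releasing hormone, was near 0 at 0.275 and 0.236 FPKM in Q-GL- libraries and 0.243 and 0.282 FPKM in Q-GL+ libraries. The corticotrope markers Pcsk1 (log2 fold change 0.47, adjusted p = 0.0134) and Lifr (0.51, adjusted p = 0.0200) passed as higher in Q-GL- cells. Both lost the call in fits that left out 1 library. Nr3c1 (-0.28, adjusted p = 0.0736) and Neurod1 (-0.13, adjusted p = 0.395) were lower and did not pass. Of markers of other cell types, Ghrhr of somatotropes, Lhb of gonadotropes, Pdgfra of fibroblasts and Csf1r of macrophages were listed at 0 in the 4 libraries. Sox2 of pituitary stem cells was at 4.51 and 3.83 FPKM in Q-GL- libraries, against 4.04 and 4.02 FPKM in Q-GL+ libraries (adjusted p = 0.896). Sox9, also of stem cells, and Pecam1 of endothelial cells were above 0 but no higher than 0.163 FPKM. The summed fibroblast markers were between 0.470 and 0.547 FPKM in Q-GL- libraries and between 0.581 and 0.847 FPKM in Q-GL+ libraries. Des, the only skeletal muscle marker in the table, was at 1.07 and 0.785 FPKM in Q-GL- libraries, against 0.324 and 0.361 FPKM in Q-GL+ libraries. The summed FPKM of the 4 libraries lay between 443840 and 469900. Without counts the depth behind each value is unknown and no counting interval can be given.

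Across the 12044 genes, 522 (4.33%) passed the test, an adjusted p under 0.05 from limma with Benjamini-Hochberg adjustment. Of these, 382 (3.17%) were higher in Q-GL- cells and 140 (1.16%) were lower, so 73.2% of the calls were higher without GL. All 522 had libraries that did not overlap between the groups, which held for 51.7% of all genes tested. Most differences were small. The median size of a called log2 fold change was 0.53, 226 calls were under 0.5, and 41 (0.34%) were at least 1 in size, of which 37 (0.307%) were higher and 4 (0.0332%) lower. For scale, the 2 Q-GL- libraries differed by a median of 0.0871 on the log2 scale and the 2 Q-GL+ libraries by 0.108. The fold change between groups had a median size of 0.115. It is a difference between means of 2 libraries, which vary less than single libraries, so these values are not directly comparable. The median gene was slightly higher in Q-GL- cells, at a log2 fold change of 0.04, and with quantile normalization 59.9% of the calls were higher in place of 73.2%. With each of the 4 libraries left out in turn between 182 and 231 genes passed, and 135 genes (1.12%) passed in every one of these fits, 109 higher (0.905%) and 26 lower (0.216%). A gene named as changed is among these 135 unless a lost call is stated with it. The plot of fold change against level shows calls at every level of expression.

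**Figure D1:**
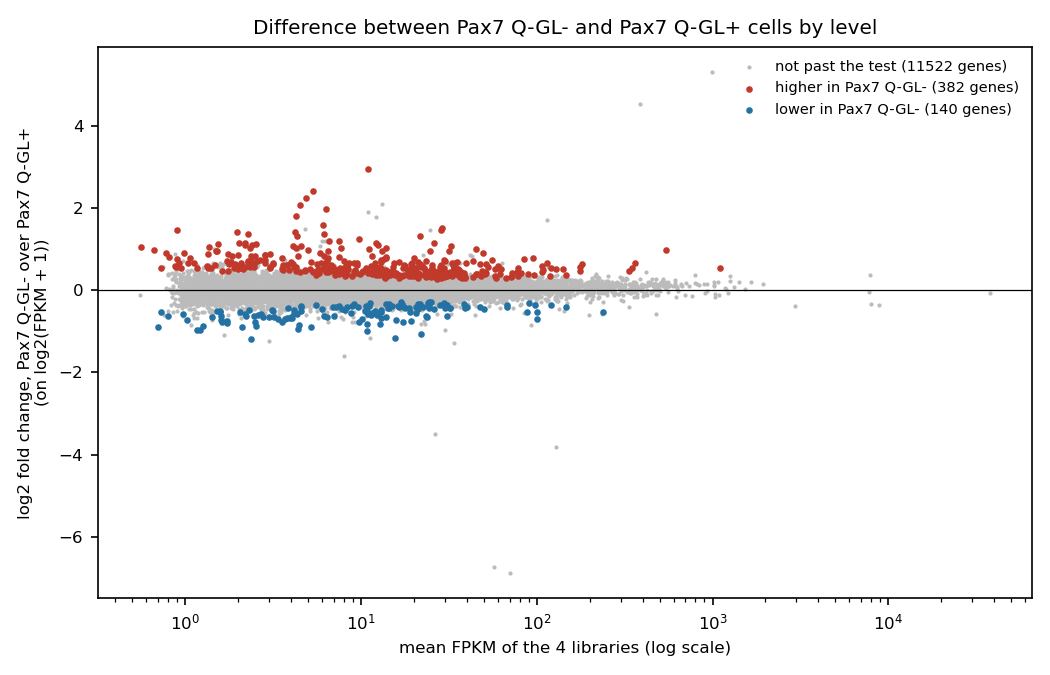
Log2 fold change of Pax7 Q-GL- over Pax7 Q-GL+ cells (vertical axis, on log2(FPKM + 1)) against the mean FPKM of the 4 libraries (horizontal axis, log scale), 1 point for each of the 12044 genes. Red points are the 382 genes higher and blue points the 140 genes lower in Q-GL- cells, and grey points are genes that did not pass the test, among them points far from 0 that belong to genes with wide spread between the libraries of a group.

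The largest increase was that of Rgs4, a GTPase activator that shortens signalling through Gi and Gq proteins, at chr1:169741477-169747642. It was at 19.9 and 20.5 FPKM in Q-GL- libraries, against 1.81 and 1.71 FPKM in Q-GL+ libraries (log2 fold change 2.94 ± 0.10 (SE), adjusted p = 9.82e-09). The serine protease gene Klk14 was at 9.37 and 9.94 FPKM in Q-GL- libraries, against 0.759 and 1.25 FPKM in Q-GL+ libraries (log2 fold change 2.42 ± 0.16 (SE), adjusted p = 3.96e-06). Lipn, of the acid lipase family, was at 9.05 and 8.39 FPKM in Q-GL- libraries, against 1.14 and 0.9496 FPKM in Q-GL+ libraries (log2 fold change 2.25 ± 0.12 (SE), adjusted p = 7.42e-07). In each of these genes both Q-GL- libraries stood far above both Q-GL+ libraries. They were picked for large changes without overlap, so this follows from the choice. Apobec2, a member of the cytidine deaminase family known from muscle, lies at chr17:48419231-48432728. It was at 10.7 and 10.6 FPKM in Q-GL- libraries, against 1.905 and 2.09 FPKM in Q-GL+ libraries (log2 fold change 1.96 ± 0.13 (SE), adjusted p = 3.96e-06). Dusp26, a dual-specificity phosphatase, was at 9.53 and 9.77 FPKM in Q-GL- libraries, against 2.78 and 2.37 FPKM in Q-GL+ libraries (log2 fold change 1.58 ± 0.14 (SE), adjusted p = 3.50e-05). The groups of libraries were far apart in both genes, which follows from the same choice. Il1b, the cytokine interleukin 1 beta, was low and was listed at 0 in both Q-GL+ libraries, with 2.11 and 1.47 FPKM in Q-GL- libraries. The kinesin gene Kif21b was at 3.42 and 3.17 FPKM in Q-GL- libraries, against 0.8201 and 0.438 FPKM in Q-GL+ libraries (log2 fold change 1.41 ± 0.13 (SE), adjusted p = 7.23e-05). Cabp7, a calmodulin-like calcium-binding protein, was at 3.33 and 4.08 FPKM in Q-GL- libraries, against 0.869 and 0.7895 FPKM in Q-GL+ libraries (log2 fold change 1.36 ± 0.13 (SE), adjusted p = 8.53e-05). The remaining genes of the 15 largest increases were Cd74, Pygm, Serpine2, 2210407C18Rik, Tmem132b, Mybpc1 and Tgfb3, with log2 fold changes from 1.31 to 2.07.

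The decreases were smaller, and only 4 reached a log2 fold change of 1 in size. They were those of the gene model Gm37494 (-1.20), of Trp53i11 (-1.16), of Pcp4, a modulator of calmodulin (-1.07), and of Sytl2, a Rab27 effector (-1.01). Cxcl14, a chemokine, was at 0.545 and 0.446 FPKM in Q-GL- libraries, against 1.99 and 1.85 FPKM in Q-GL+ libraries (log2 fold change -0.97 ± 0.14 (SE), adjusted p = 0.00166). Fam57b, a gene linked to ceramide synthesis, was at 8.61 and 9.29 FPKM in Q-GL- libraries, against 17.4 and 15.8 FPKM in Q-GL+ libraries (log2 fold change -0.82 ± 0.10 (SE), adjusted p = 5.11e-04). Fam189a1 was at 2.62 and 2.79 FPKM in Q-GL- libraries, against 6.56 and 5.69 FPKM in Q-GL+ libraries (log2 fold change -0.94 ± 0.11 (SE), adjusted p = 2.99e-04). Both Q-GL+ libraries were above both Q-GL- libraries in each of the 3 genes, as in every gene called lower. Spink4, a protease inhibitor gene also among the 15 largest decreases, was at 0.798 and 1.496 FPKM in Q-GL- libraries, against 3.86 and 2.24 FPKM in Q-GL+ libraries. Its adjusted p of 0.0403 became 0.284 with Q-GL- replicate 1 left out, 0.0553 with Q-GL- replicate 2 left out and 0.218 with Q-GL+ replicate 1 left out. For 2700012I20Rik (-0.91) the adjusted p was 0.0702 when Q-GL- replicate 1 was left out and 0.0530 when Q-GL+ replicate 1 was left out. Frmd8os (-0.86) had an adjusted p of 0.0751 when Q-GL- replicate 2 was left out and 0.0716 when Q-GL+ replicate 1 was left out. Frmd8os and Rptoros are antisense genes, and the strand setting of the gene counting is not given in the sources used here, so their values cannot be told apart from those of overlapping genes.

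**Figure D2:**
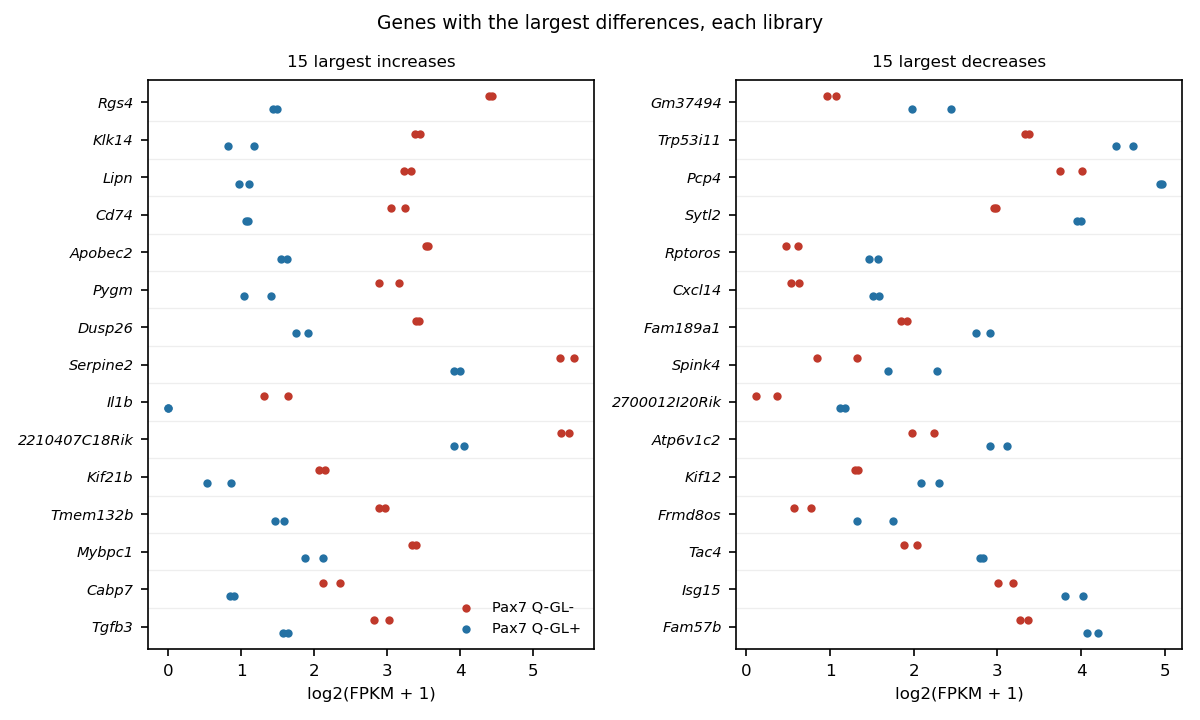
Level of the 15 genes with the largest increases (left) and the 15 with the largest decreases (right) in Pax7 Q-GL- cells, as log2(FPKM + 1), with 1 point per library, Q-GL- in red and Q-GL+ in blue. The genes were picked among calls whose libraries did not overlap, so in all 30 the 2 red points lie on one side of the 2 blue points. The largest log2 fold change is 2.94, for Rgs4.

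The cells with Pax7 Q+GL+ give a second set of GL-containing values, for which Q differs as well. Rgs4 was at 2.15 and 2.03 FPKM there, Apobec2 at 2.03 and 2.98, Lipn at 0.434 and 0.503 and Il1b was again listed at 0. These 4 genes lie beside the Q-GL+ values, and some other increases did not. Cd74, with 7.28 and 8.45 FPKM in Q-GL- libraries, was at 8.13 and 9.38 FPKM in Q+GL+ libraries and 1.09 and 1.13 FPKM in Q-GL+ libraries, so that Q-GL+ alone was low. Serpine2, with 40.3 and 45.9 FPKM in Q-GL- libraries, was in between at 24.8 and 25.2 FPKM in Q+GL+ libraries, against 14.1 and 14.9 FPKM in Q-GL+ libraries. The decreases differed among themselves too. Trp53i11 was at 9.09 and 9.35 FPKM in Q-GL- libraries, 9.26 and 10.3 FPKM in Q+GL+ libraries and 23.6 and 20.3 FPKM in Q-GL+ libraries. Pcp4 was at 12.5 and 15.2 FPKM in Q-GL- libraries, 14.6 and 16.1 FPKM in Q+GL+ libraries and 29.7 and 30.2 FPKM in Q-GL+ libraries. Fam57b was at 8.66 and 7.77 FPKM and Tac4, a tachykinin precursor, at 2.36 and 2.605 FPKM in Q+GL+ libraries, close to the Q-GL- values of 8.61 and 9.29 and 3.13 and 2.68 FPKM. In these 4 genes the Q-GL+ libraries alone were high among the 3 isoforms, and whether this belongs to the isoform or to the pool of cells cannot be told apart. Atp6v1c2, a proton pump subunit, was at 2.96 and 3.72 FPKM in Q-GL- libraries, 4.65 and 6.26 FPKM in Q+GL+ libraries and 6.52 and 7.69 FPKM in Q-GL+ libraries, and Gm37494 was at 0.949 and 1.099 FPKM in Q-GL- libraries, 2.89 and 2.25 FPKM in Q+GL+ libraries and 4.44 and 2.94 FPKM in Q-GL+ libraries. In both genes the Q+GL+ values lay between those of the other groups.

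The genes tested were sorted into 76 classes by name or list, which held 5430 of the genes and 309 of the calls. More members rose than fell in 55 classes, more fell than rose in 8, the counts were equal in 6, and 7 classes had no call. With quantile normalization 64 of the 76 classes had more calls, and in 40 the count was over 1.5 times as high. The plot of the classes gives the share of those with at least 20 genes tested, apart from 1, to be read against the 3.17% of all genes that were higher and the 1.16% that were lower.

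**Figure D3:**
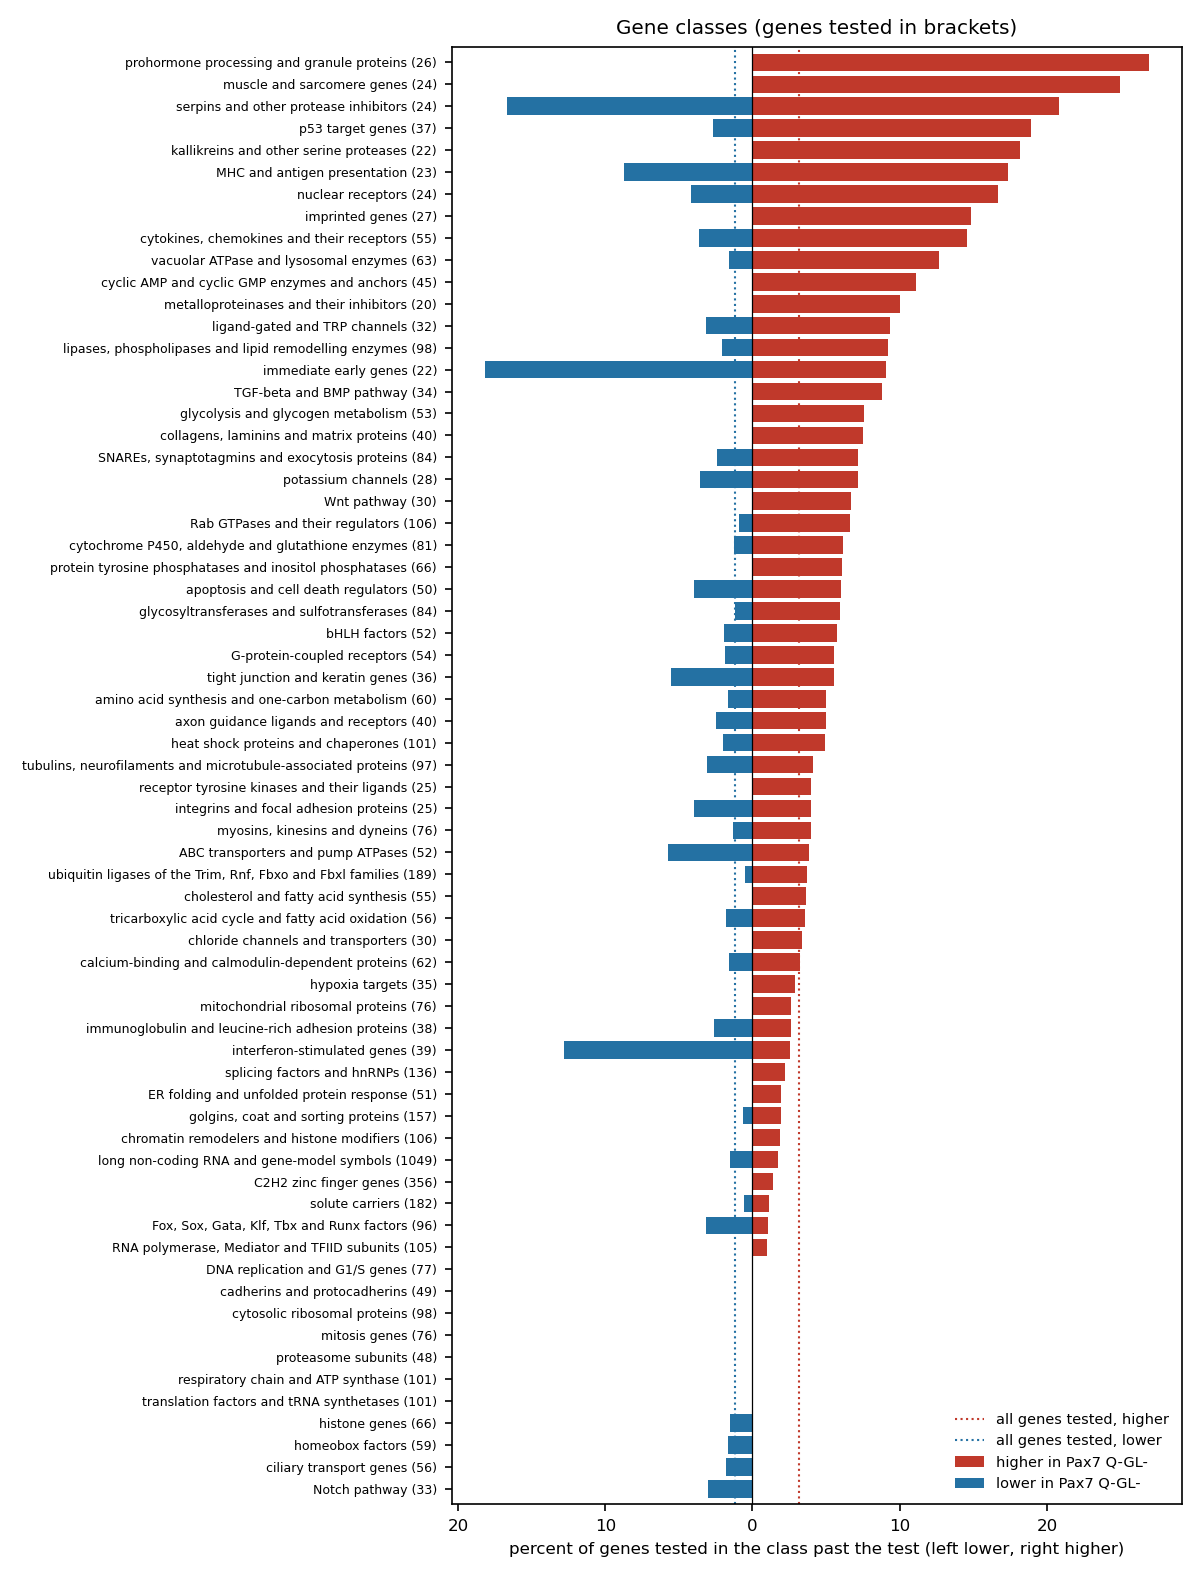
Percent of the genes tested in each class that were higher (red, right) or lower (blue, left) in Pax7 Q-GL- than in Pax7 Q-GL+ cells, for classes with at least 20 genes tested, 1 class left out, whose number stands in brackets. Dotted lines mark the shares over all genes tested, 3.17% higher and 1.16% lower, and the longest bars to the left are those of immediate early genes, serpins and interferon-stimulated genes.

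Among signalling genes, single members of several developmental pathways were higher in Q-GL- cells. Over all genes tested 4.33% were called, with a median log2 fold change of 0.04. Of 9 Hedgehog pathway genes tested 2 rose and none fell (22.2% called, median 0.01). Cdon had the lowest log2 fold change of the 9, at -0.24, and did not pass. The 2 that rose encode co-receptors that bind the Hedgehog ligand. Boc was at 3.65 and 4.03 FPKM in Q-GL- libraries, against 1.32 and 1.15 FPKM in Q-GL+ libraries (log2 fold change 1.12 ± 0.12 (SE), adjusted p = 1.57e-04), and Gas1 was at 9.16 and 7.79 FPKM in Q-GL- libraries, against 4.34 and 4.65 FPKM in Q-GL+ libraries (log2 fold change 0.78 ± 0.11 (SE), adjusted p = 0.00166). Of 34 genes of the TGF-beta and BMP pathway 3 rose and none fell (8.82% called, median 0.04). Its ligand genes were Tgfb3, at 6.03 and 7.12 FPKM in Q-GL- libraries, against 2.11 and 1.97 FPKM in Q-GL+ libraries (log2 fold change 1.31 ± 0.11 (SE), adjusted p = 2.38e-05), and Bmp7, at 4.33 and 4.09 FPKM, against 1.89 and 1.7998 FPKM (log2 fold change 0.87 ± 0.12 (SE), adjusted p = 0.00108). Of 30 Wnt pathway genes 2 rose and none fell (6.67% called, median 0.01). They were led by Rspo4, an R-spondin that amplifies Wnt signals, at 2.07 and 2.32 FPKM in Q-GL- libraries, against 0.549 and 0.529 FPKM in Q-GL+ libraries (log2 fold change 1.05 ± 0.13 (SE), adjusted p = 7.40e-04). Gas6, the ligand of the TAM receptor kinases, was the only call among 25 receptor tyrosine kinases and their ligands (4% called, median 0.10). It was at 6.396 and 6.62 FPKM in Q-GL- libraries, against 2.56 and 2.61 FPKM in Q-GL+ libraries (log2 fold change 1.07 ± 0.12 (SE), adjusted p = 2.49e-04). The libraries of both groups were close together and the groups well apart in these genes. This follows from the choice, since they were named for small adjusted p-values or large changes. Of 33 Notch pathway genes none rose and 1 fell, the target and repressor gene Hes1 (-0.70), whose adjusted p of 0.0263 lay between 0.0767 and 0.209 with any 1 of the 4 libraries left out.

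Genes of the G-protein and cyclic AMP systems were called in both directions besides Rgs4. Of 54 G-protein-coupled receptors 3 rose and 1 fell (7.41% called, against 4.33% of all genes), with a median log2 fold change of 0.09. The calcium-sensing receptor gene Casr was at 27.8 and 26.6 FPKM in Q-GL- libraries, against 18.6 and 18.3 FPKM in Q-GL+ libraries (log2 fold change 0.54 ± 0.07 (SE), adjusted p = 8.37e-04). Of 45 enzymes and anchors of cyclic nucleotides 5 rose and none fell (11.1% called), of which Pde4d, a cyclic AMP phosphodiesterase, passed in every fit with 1 library left out. It was at 10.6 and 9.72 FPKM in Q-GL- libraries, against 5.47 and 6.29 FPKM in Q-GL+ libraries (log2 fold change 0.70 ± 0.11 (SE), adjusted p = 0.00223). Of 15 peptide hormone and neuropeptide genes other than Pomc 3 rose and 1 fell (26.7% called). Iapp, which encodes amylin, was at 32.4 and 30.5 FPKM in Q-GL- libraries, against 12.8 and 11.4 FPKM in Q-GL+ libraries (log2 fold change 1.31 ± 0.08 (SE), adjusted p = 3.58e-06), and 6.69 and 7.31 FPKM in Q+GL+ libraries. Stc1, the hormone stanniocalcin 1, was at 44.9 and 39.4 FPKM in Q-GL- libraries, against 21.5 and 20.7 FPKM in Q-GL+ libraries (log2 fold change 0.96 ± 0.08 (SE), adjusted p = 2.41e-05). Tac4 went the other way, at 3.13 and 2.68 FPKM in Q-GL- libraries, against 6.098 and 5.93 FPKM in Q-GL+ libraries (log2 fold change -0.85 ± 0.12 (SE), adjusted p = 0.00117). Agt, the angiotensin precursor, belongs to no class and was chosen after its values were seen. It was at 45.2 and 43.3 FPKM in Q-GL- libraries, against 21.2 and 19.6 FPKM in Q-GL+ libraries (log2 fold change 1.08 ± 0.08 (SE), adjusted p = 6.97e-06).

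The direction of calls among immune genes differed by class, and few of these calls held in every fit that left out 1 library. Of 55 cytokines, chemokines and their receptors and transducers 8 rose and 2 fell (18.2% called, against 4.33% of all genes). Most of the 8 lost the call in at least 1 fit that left out 1 library. Cxcl12, the CXCR4 ligand, was at 40.7 and 44.04 FPKM in Q-GL- libraries, against 29.5 and 30.2 FPKM in Q-GL+ libraries (log2 fold change 0.49 ± 0.07 (SE), adjusted p = 0.00147). Stat3, the transducer of interleukin 6 type cytokines, was at 67.01 and 68.8 FPKM in Q-GL- libraries, against 50.02 and 45.3 FPKM in Q-GL+ libraries (log2 fold change 0.50 ± 0.09 (SE), adjusted p = 0.00692), and its adjusted p was 0.0746 when Q-GL- replicate 2 and 0.0940 when Q-GL+ replicate 2 was left out. Interferon-stimulated genes went the other way, with 1 higher and 5 lower of 39 tested (15.4% called) and a median log2 fold change of -0.11. Isg15, a ubiquitin-like modifier, was the only one of them to pass in every fit with 1 library left out (-0.82). Oas2, an antiviral oligoadenylate synthetase, was at 0.897 and 1.15 FPKM in Q-GL- libraries, against 2.23 and 2.61 FPKM in Q-GL+ libraries (log2 fold change -0.76 ± 0.13 (SE), adjusted p = 0.00539), and its adjusted p was 0.0658 when Q-GL- replicate 1 and 0.0748 when Q-GL+ replicate 2 was left out. Reads of the Oas genes can be shared among near-identical copies. Isg15 was at 8.23 and 8.49 FPKM in Q+GL+ libraries, which also have GL, near its 8.08 and 7.02 FPKM in Q-GL- libraries. Of 23 genes of MHC and antigen presentation 4 rose and 2 fell (26.1% called). Only Cd74 and H2-T22 kept the call in every fit with 1 library left out, and without Q-GL+ replicate 2 more fell than rose. Cd74, which encodes the chaperone of MHC class II molecules known as the invariant chain, was at 7.28 and 8.45 FPKM in Q-GL- libraries, against 1.09 and 1.13 FPKM in Q-GL+ libraries (log2 fold change 2.07 ± 0.14 (SE), adjusted p = 3.96e-06), while H2-T22, a class Ib gene with near-identical copies, was at 9.82 and 9.49 FPKM in Q-GL- libraries, against 15.7 and 14.5 FPKM in Q-GL+ libraries (log2 fold change -0.59 ± 0.09 (SE), adjusted p = 0.00198). The macrophage marker Cd68 was at 0.212 and 0.213 FPKM in Q-GL- libraries, against 0.209 and 0.409 FPKM in Q-GL+ libraries. Gimap6 and Gimap8, neighbouring GTPase genes known from lymphocytes and chosen after their values were seen, rose by 0.68 and 0.72, and so did Tlr4, the lipopolysaccharide receptor, by 0.58.

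Among genes for transcription and chromatin proteins, the families differed in how many genes were called, against 4.33% of all genes. Of 59 homeobox genes none rose and 1 fell (1.69%), Barx2 (-0.45), whose adjusted p of 0.0263 lay between 0.0673 and 0.174 with any 1 of the 4 libraries left out. Of 356 C2H2 zinc finger genes 5 rose and none fell (1.40%), and of 106 chromatin remodelers and histone modifiers 2 rose and none fell (1.89%). Zfp92, on the X chromosome, was at 2.05 and 2.55 FPKM in Q-GL- libraries, against 0.619 and 0.76995 FPKM in Q-GL+ libraries (log2 fold change 0.96 ± 0.14 (SE), adjusted p = 0.00149). Ss18, a subunit of BAF remodelling complexes, was at 77.02 and 70.1 FPKM in Q-GL- libraries, against 52.3 and 49.9 FPKM in Q-GL+ libraries (log2 fold change 0.52 ± 0.08 (SE), adjusted p = 0.00188). Sim2, a bHLH-PAS factor, was at 23.6 and 23.1 FPKM in Q-GL- libraries, against 16.4 and 16.2 FPKM in Q-GL+ libraries (log2 fold change 0.49 ± 0.07 (SE), adjusted p = 0.001997), 1 of 3 bHLH genes of 52 that rose while 1 fell. Of 24 nuclear receptor genes 4 rose and 1 fell, and none of the 5 passed in every fit with 1 library left out. Of 22 immediate early genes 2 rose and 4 fell, again none in every such fit. Klf4 was at 16.4 and 18.8 FPKM in Q-GL- libraries, against 24.005 and 25.3 FPKM in Q-GL+ libraries (log2 fold change -0.46 ± 0.08 (SE), adjusted p = 0.00539), with an adjusted p of 0.0771 when Q-GL- replicate 1 and 0.0682 when Q-GL+ replicate 2 was left out.

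Several secretory and lysosomal genes rose, mostly by small amounts. Of 63 genes of lysosomal enzymes and the vacuolar ATPase 8 rose and 1 fell (14.3% called, against 4.33% of all genes). A positive log2 fold change was seen in 53 of the 63, against 59.6% of all genes tested, and the median was 0.15 against 0.04. With median centring 12 rose and 2 fell, and with quantile normalization 16 rose and 2 fell. Ctsb, the protease cathepsin B, was at 21.8 and 22.02 FPKM in Q-GL- libraries, against 15.4 and 15.1 FPKM in Q-GL+ libraries (log2 fold change 0.50 ± 0.08 (SE), adjusted p = 0.00371). Gaa, the acid glucosidase that degrades glycogen in lysosomes, was at 144 and 143 FPKM in Q-GL- libraries, against 102 and 94.9 FPKM in Q-GL+ libraries (log2 fold change 0.53 ± 0.09 (SE), adjusted p = 0.00423), with an adjusted p of 0.0635 without Q-GL+ replicate 2. Of the others that rose, the enzyme genes Ctsf, Ctsl, Glb1, Hexa and Ctsa had log2 fold changes from 0.42 to 0.55. They lost the call without any 1 of the 4 libraries, at adjusted p from 0.0530 to 0.279, except that Ctsl kept it without Q-GL+ replicate 1. The one that fell was Atp6v1c2, a C subunit isoform of the proton pump, at 2.96 and 3.72 FPKM in Q-GL- libraries, against 6.52 and 7.69 FPKM in Q-GL+ libraries (log2 fold change -0.90 ± 0.14 (SE), adjusted p = 0.00226). Outside the list, 3 further hydrolase genes, chosen after their values were seen, rose by more than any of its members. Galns, the sulfatase that acts on keratan sulfate, was at 16.6 and 17.6 FPKM in Q-GL- libraries, against 7.502 and 6.99998 FPKM in Q-GL+ libraries (log2 fold change 1.13 ± 0.11 (SE), adjusted p = 9.27e-05), and 6.54 and 7.38 FPKM in Q+GL+ libraries. Lgmn, the asparaginyl endopeptidase legumain, was at 40.4 and 40.6 FPKM in Q-GL- libraries, against 24.6 and 25.7 FPKM in Q-GL+ libraries (log2 fold change 0.67 ± 0.09 (SE), adjusted p = 0.00115), and the carboxypeptidase gene Cpq was at 34.5 and 35.5 FPKM, against 22.5 and 22.3 FPKM (log2 fold change 0.62 ± 0.08 (SE), adjusted p = 0.00117). Of 106 Rab GTPases and their regulators 7 rose and 1 fell, with Rab30, a Golgi Rab, at 14.6 and 15.4 FPKM in Q-GL- libraries, against 8.66 and 7.47 FPKM in Q-GL+ libraries (log2 fold change 0.82 ± 0.13 (SE), adjusted p = 0.00287). Of 157 golgins, coat and sorting proteins 3 rose and 1 fell (2.55% called, below the 4.33% of all genes). Sorcs2, a sortilin-related receptor, was at 9.83 and 7.96 FPKM in Q-GL- libraries, against 4.896 and 3.35 FPKM in Q-GL+ libraries (log2 fold change 0.96 ± 0.14 (SE), adjusted p = 0.00166). Of 84 SNAREs, synaptotagmins and exocytosis proteins 6 rose and 2 fell (9.52% called). Each of the 6 that rose lost the call in at least 1 fit that left out 1 library, while Sytl2, which fell, kept it. In several of these fits more of the class fell than rose. Of 51 genes of ER folding and the unfolded protein response 1 rose (1.96% called). With quantile normalization the balance turned in both classes, to 5 higher and 6 lower and to 2 higher and 4 lower. Of 26 genes of prohormone processing and granules 7 rose and none fell (26.9% called). Pcsk2, the convertase that cleaves POMC-derived peptides in melanotropes, was at 35.8 and 36.6 FPKM in Q-GL- libraries, against 16.2 and 15.4 FPKM in Q-GL+ libraries (log2 fold change 1.14 ± 0.07 (SE), adjusted p = 3.96e-06).

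Lipid and carbohydrate genes made up a further part of the difference. Of 98 lipases, phospholipases and lipid remodelling enzymes 9 rose and 2 fell (11.2% called, against 4.33% of all genes). Lipc, hepatic lipase, named after its values were seen, was at 2.75 and 2.22 FPKM in Q-GL- libraries, against 0.717 and 0.468 FPKM in Q-GL+ libraries (log2 fold change 1.13 ± 0.14 (SE), adjusted p = 5.87e-04). Enpp2, the enzyme autotaxin that makes lysophosphatidic acid, was at 18.9 and 16.9 FPKM in Q-GL- libraries, against 10.1 and 9.99 FPKM in Q-GL+ libraries (log2 fold change 0.78 ± 0.09 (SE), adjusted p = 4.69e-04). Sgms2, a sphingomyelin synthase, was at 49.1 and 48.3 FPKM in Q-GL- libraries, against 30.4 and 30.3 FPKM in Q-GL+ libraries (log2 fold change 0.67 ± 0.07 (SE), adjusted p = 2.66e-04). The values of the 2 libraries of a group differed little in these genes, which were named for small adjusted p-values or after their values were seen. In a list of 18 lipid droplet and fatty acid binding proteins, drawn up after its values were seen, 5 rose and 2 fell. G0s2, an inhibitor of the triglyceride lipase encoded by Pnpla2, was at 18.4 and 16.99 FPKM in Q-GL- libraries, against 11.6 and 8.15 FPKM in Q-GL+ libraries (log2 fold change 0.80 ± 0.13 (SE), adjusted p = 0.00309). Hilpda, another inhibitor of that lipase, was at 40.02 and 39.9 FPKM in Q-GL- libraries, against 26.5 and 28.5 FPKM in Q-GL+ libraries (log2 fold change 0.52 ± 0.08 (SE), adjusted p = 0.00165). Pnpla2 itself was at 8.63 and 10.2 FPKM in Q-GL- libraries, against 13.6 and 14.96 FPKM in Q-GL+ libraries (log2 fold change -0.56 ± 0.12 (SE), adjusted p = 0.0178), with an adjusted p of 0.169 with Q-GL- replicate 1 left out, and of 0.0566 or 0.164 with Q-GL+ replicate 1 or 2 left out. Of 55 genes of cholesterol and fatty acid synthesis 2 rose and none fell (3.64% called, below the 4.33% of all genes), and with quantile normalization 4 rose and 7 fell. The elongase gene Elovl5 was at 75.3 and 69.9 FPKM in Q-GL- libraries, against 51.2 and 47.4 FPKM in Q-GL+ libraries (log2 fold change 0.55 ± 0.08 (SE), adjusted p = 0.00216).

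Of 53 genes of glycolysis and glycogen metabolism 4 rose and none fell (7.55% called, against 4.33% of all genes). Of the 4, 3 act on glycogen. Pygm, the muscle glycogen phosphorylase, was at 6.41 and 7.95 FPKM in Q-GL- libraries, against 1.05 and 1.65 FPKM in Q-GL+ libraries (log2 fold change 1.80 ± 0.16 (SE), adjusted p = 3.50e-05). Epm2a, the glycogen phosphatase laforin, was at 5.89 and 5.98 FPKM in Q-GL- libraries, against 2.36 and 2.23 FPKM in Q-GL+ libraries (log2 fold change 1.08 ± 0.17 (SE), adjusted p = 0.00346). Ppp1r3c, a glycogen-targeting subunit of protein phosphatase 1, was at 5.97 and 5.83 FPKM in Q-GL- libraries, against 2.97 and 2.77 FPKM in Q-GL+ libraries (log2 fold change 0.83 ± 0.13 (SE), adjusted p = 0.00226). Both Q-GL- libraries were above both Q-GL+ libraries in all 3, as in every gene called higher. Of 101 genes of the respiratory chain and ATP synthase none passed, with 12 at an unadjusted p under 0.05, against 19.1% of all genes. In this class 2 rose and 1 fell with median centring and 5 rose and 2 fell with quantile normalization. Among 81 genes of cytochrome P450, aldehyde and glutathione enzymes 5 rose and 1 fell (7.41% called). Gpx3, a secreted glutathione peroxidase, was at 6.51 and 7.38 FPKM in Q-GL- libraries, against 2.902 and 3.12 FPKM in Q-GL+ libraries (log2 fold change 0.99 ± 0.15 (SE), adjusted p = 0.00262), and Ephx1, microsomal epoxide hydrolase, was at 70.8 and 68.5 FPKM, against 44.6 and 38.6 FPKM (log2 fold change 0.73 ± 0.10 (SE), adjusted p = 0.00104). Of 13 genes of monoamine synthesis and transport, a list drawn up after its values were seen, 3 rose and 1 fell (30.8% called). The 3 were Th, tyrosine hydroxylase (0.81), Comtd1 (0.61) and Pcbd1 (0.28). Th and Pcbd1 lost the call without any 1 of the 4 libraries, at adjusted p up to 0.128 and 0.238, and Comtd1 without each of them but Q-GL- replicate 2, at adjusted p up to 0.174. Ddc, the aromatic amino acid decarboxylase, fell to 73.6 and 78.6 FPKM in Q-GL- libraries, against 129 and 119 FPKM in Q-GL+ libraries (log2 fold change -0.70 ± 0.09 (SE), adjusted p = 0.00108).

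Proteases, their inhibitors and matrix genes held several of the larger changes. Of 24 serpins and other protease inhibitors 5 rose and 4 fell (37.5% called, against 4.33% of all genes). Serpine2, an inhibitor of thrombin and plasminogen activators, was at 40.3 and 45.9 FPKM in Q-GL- libraries, against 14.1 and 14.9 FPKM in Q-GL+ libraries (log2 fold change 1.51 ± 0.08 (SE), adjusted p = 7.42e-07). Serpina1f was listed at 0 in Q-GL+ replicate 1 and was at 0.0336 FPKM in Q-GL+ replicate 2, with 1.17 and 1.03 FPKM in Q-GL- libraries. Of 40 collagens, laminins and matrix proteins 3 rose and none fell (7.5% called). The laminin chain gene Lamb3 was at 5.51 and 6.67 FPKM in Q-GL- libraries, against 2.27 and 2.66 FPKM in Q-GL+ libraries (log2 fold change 1.03 ± 0.15 (SE), adjusted p = 0.00156), and Lama4 was at 5.24 and 4.96 FPKM, against 3.05 and 2.73 FPKM (log2 fold change 0.65 ± 0.10 (SE), adjusted p = 0.00198). Of 40 axon guidance genes 2 rose and 1 fell (7.5% called), and 2 rose and 3 fell with centring within chromosomes. Sema6b, a transmembrane semaphorin, was at 9.54 and 10.2 FPKM in Q-GL- libraries, against 5.34 and 5.06 FPKM in Q-GL+ libraries (log2 fold change 0.81 ± 0.10 (SE), adjusted p = 7.12e-04). Bcam, a laminin receptor, fell to 9.01 and 8.75 FPKM in Q-GL- libraries, against 14.1 and 13.9 FPKM in Q-GL+ libraries (log2 fold change -0.60 ± 0.08 (SE), adjusted p = 6.48e-04). Nedd9, a scaffold of focal adhesions, rose to 37.5 and 37.1 FPKM in Q-GL- libraries, against 23.98 and 20.99 FPKM in Q-GL+ libraries (log2 fold change 0.71 ± 0.08 (SE), adjusted p = 4.11e-04). Igfbp5, an IGF-binding protein chosen after its values were seen, fell to 17.7 and 18.7 FPKM in Q-GL- libraries, against 28.9 and 28.99 FPKM in Q-GL+ libraries (log2 fold change -0.64 ± 0.08 (SE), adjusted p = 6.92e-04). No cadherin or protocadherin gene of 49 passed, while 4 fell with quantile normalization. An unadjusted p under 0.05 was seen in 9 of the 49, against 19.1% of all genes tested. Among the 49, Clstn1 was at 64.04 and 64.4 FPKM in Q-GL- libraries and 58.04 and 52.5 FPKM in Q-GL+ libraries.

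In the cytoskeleton the calls went both ways. Arhgap29, which encodes a GTPase-activating protein, rose to 25.96 and 24.9 FPKM in Q-GL- libraries, against 14.6 and 14.4 FPKM in Q-GL+ libraries (log2 fold change 0.77 ± 0.09 (SE), adjusted p = 4.14e-04), while Arhgap45, of the same family, fell to 12.97 and 12.1 FPKM, against 22.6 and 21.9 FPKM (log2 fold change -0.78 ± 0.09 (SE), adjusted p = 2.99e-04). Of 76 myosins, kinesins and dyneins 3 rose and 1 fell (5.26% called, against 4.33% of all genes). Kif19a, a depolymerizing kinesin, rose to 30.9 and 34.4 FPKM in Q-GL- libraries, against 17.3 and 15.6 FPKM in Q-GL+ libraries (log2 fold change 0.94 ± 0.11 (SE), adjusted p = 2.99e-04), while Kif12 fell to 1.52 and 1.46 FPKM, against 3.95 and 3.24 FPKM (log2 fold change -0.88 ± 0.12 (SE), adjusted p = 0.00108). Nefl, the neurofilament light chain, rose to 128 and 129 FPKM in Q-GL- libraries, against 87.8 and 82.7 FPKM in Q-GL+ libraries (log2 fold change 0.59 ± 0.09 (SE), adjusted p = 0.00208). Of 24 muscle and sarcomere genes 6 rose and none fell, with a median log2 fold change of 0.14. Besides Pygm and Mybpc1 (1.37), a myosin-binding protein of the sarcomere, Fhl1, a LIM protein of muscle, was at 24.3 and 23.6 FPKM in Q-GL- libraries, against 16.5 and 16.5 FPKM in Q-GL+ libraries (log2 fold change 0.51 ± 0.07 (SE), adjusted p = 0.00163).

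Genes of excitability were also called in both directions. Abcc8, the sulfonylurea receptor of ATP-sensitive potassium channels, was at 11.2 and 10.1 FPKM in Q-GL- libraries, against 4.56 and 4.89 FPKM in Q-GL+ libraries (log2 fold change 1.03 ± 0.09 (SE), adjusted p = 5.22e-05). Among 18 voltage-gated sodium and calcium channel genes 2 rose and 2 fell (22.2% called, against 4.33% of all genes). Among those that fell was Scn2b, a sodium channel beta subunit, at 2.27 and 2.26 FPKM in Q-GL- libraries, against 4.29 and 3.95 FPKM in Q-GL+ libraries (log2 fold change -0.65 ± 0.10 (SE), adjusted p = 0.00294). Of 28 potassium channel genes 2 rose and 1 fell (10.7% called). Of 32 ligand-gated and TRP channel genes 3 rose and 1 fell (12.5% called). Of 182 solute carriers 2 rose and 1 fell (1.65% called), and 4 rose and 8 fell with quantile normalization. None of the potassium channel, ligand-gated and TRP channel or solute carrier calls held in every fit with 1 library left out. Entpd3, an ectonucleotidase chosen after its values were seen, rose to 14.8 and 15.5 FPKM in Q-GL- libraries, against 7.15 and 7.07 FPKM in Q-GL+ libraries (log2 fold change 0.99 ± 0.09 (SE), adjusted p = 7.72e-05).

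**Figure D4:**
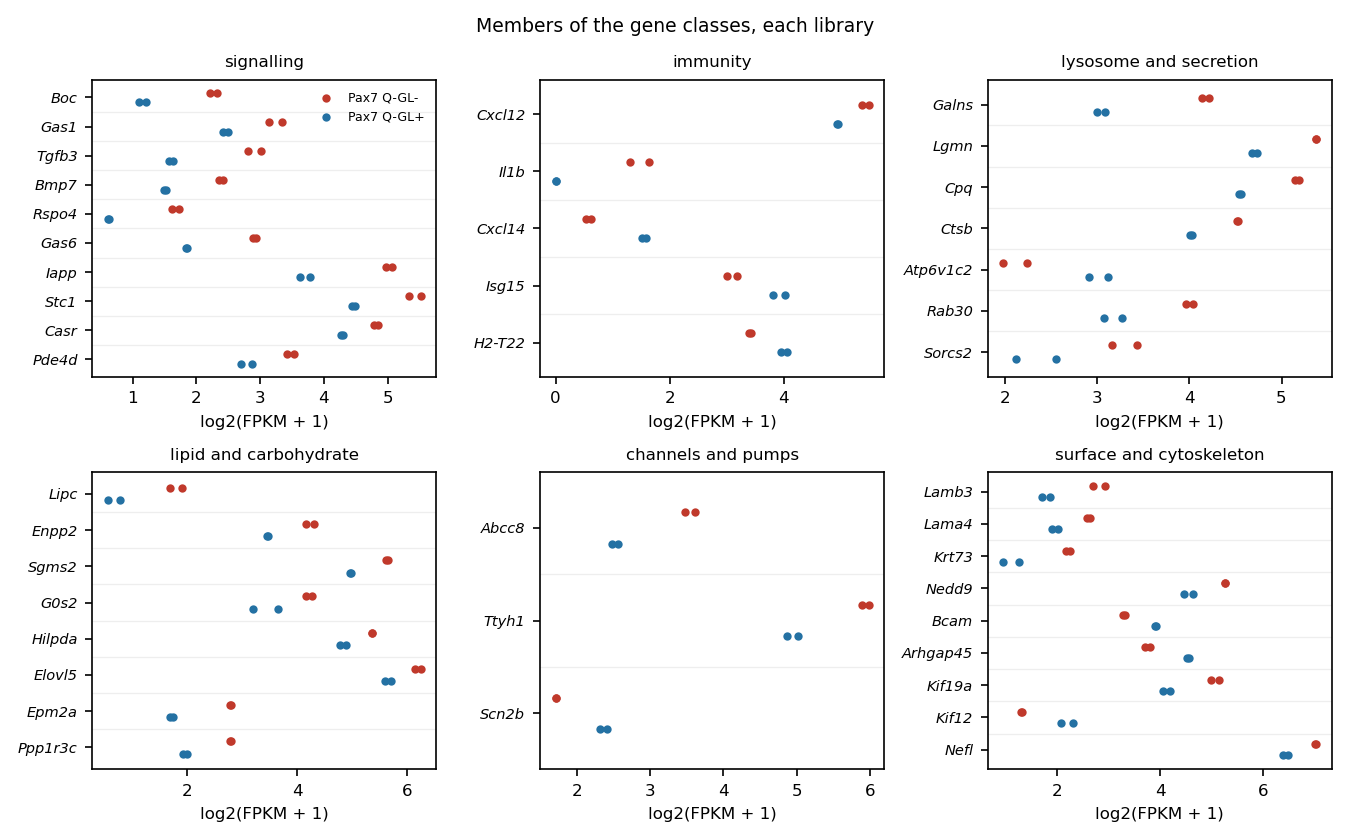
Level of genes of 6 areas, as log2(FPKM + 1), with 1 point per library, Pax7 Q-GL- in red and Pax7 Q-GL+ in blue. The genes were picked among those that passed in every fit with 1 library left out, so the red and blue points do not overlap, and the panels show how close the libraries of a group lie and that a few genes, such as Cxcl14, H2-T22, Atp6v1c2, Scn2b and Kif12, are lower in Q-GL- cells.

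Genes for basic cell functions showed few differences. No gene passed among 98 cytosolic ribosomal proteins, 48 proteasome subunits, 101 translation factors and tRNA synthetases, 77 genes of DNA replication and the G1/S step, and 76 mitosis genes, where 14, 6, 11, 5 and 6 genes had an unadjusted p under 0.05, against 19.1% of all genes tested. With quantile normalization 3 replication and 4 mitosis genes fell and none of either rose, and 4 cytosolic ribosomal protein genes rose and 2 fell. The most abundant members were close. Pcna, the replication clamp, was at 280.4 and 263 FPKM in Q-GL- libraries and 297 and 276 FPKM in Q-GL+ libraries, and it passed with quantile normalization, at -0.14 (adjusted p = 0.0341). Top2a, the topoisomerase of dividing cells, was at 267 and 261 FPKM in Q-GL- libraries and 286 and 257 FPKM in Q-GL+ libraries. Cytosolic ribosomal protein genes had a median log2 fold change of 0.11 against 0.04 for all genes, with 83 of 98 positive, against 59.6% of all genes tested. Genes linked to p53 differed more, with 7 higher and 1 lower of 37 tested (21.6% called, against 4.33% of all genes). Sat1, the acetylase that starts polyamine breakdown, was at 55.01 and 53.4 FPKM in Q-GL- libraries, against 32.8 and 32.4 FPKM in Q-GL+ libraries (log2 fold change 0.72 ± 0.07 (SE), adjusted p = 1.42e-04). The one that fell was Trp53i11, at 9.09 and 9.35 FPKM in Q-GL- libraries, against 23.6 and 20.3 FPKM in Q-GL+ libraries (log2 fold change -1.16 ± 0.09 (SE), adjusted p = 8.94e-06). The other 6, Ak1, Eda2r, Gadd45a, Ddb2, Ccng1 and Phlda3, had log2 fold changes from 0.38 to 0.64. The last 4 lost the call without any 1 of the 4 libraries, Ak1 without Q-GL- replicate 2 (adjusted p = 0.0868) or Q-GL+ replicate 2 (adjusted p = 0.0733), and Eda2r without Q-GL- replicate 1 (adjusted p = 0.0891) or Q-GL+ replicate 1 (adjusted p = 0.0767).

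Among imprinted genes 4 of 27 rose and none fell (14.8% called, against 4.33% of all genes). A positive log2 fold change was seen in 22 of the 27, against 59.6% of all genes tested, and the median was 0.16 against 0.04. Peg13, a paternally expressed non-coding RNA, was at 12.5 and 13.1 FPKM in Q-GL- libraries, against 8.71 and 9.13 FPKM in Q-GL+ libraries (log2 fold change 0.48 ± 0.08 (SE), adjusted p = 0.002999). Of 1049 long non-coding and unnamed gene models 18 rose and 16 fell (3.24% called), and 20 rose and 31 fell with quantile normalization. The gene model Gm13373 was at 28.5 and 29.8 FPKM in Q-GL- libraries, against 17.4 and 17.7 FPKM in Q-GL+ libraries (log2 fold change 0.70 ± 0.08 (SE), adjusted p = 2.07e-04). Small RNA genes were erratic. Of the 21 genes that differed by a log2 fold change of 1 or more and did not pass the test, 13 are snoRNA, 2 miRNA and 2 miscellaneous RNA genes. Snord49b, chosen after its values were seen, was at 1247 and 1522 FPKM in Q-GL- libraries, and was listed at 0 in Q-GL+ replicate 1 and at 1225 FPKM in Q-GL+ replicate 2. Of 88 small RNA genes tested 1 passed, Gm26315 (-0.79), and it lost the call without any 1 of the 4 libraries, at adjusted p from 0.119 to 0.146.

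By chromosome, genes of chromosome 1 stood apart from all others. Of its 671 genes tested 40 rose and 6 fell, 6.86% called against 4.33% of all genes. A positive log2 fold change was seen in 73.8% of the 671, against 59.6% of all genes tested. The median log2 fold change was 0.11 on chromosome 1 and between 0.02 and 0.07 on the other autosomes and the X chromosome. In single libraries, the median level of chromosome 1 genes relative to those of the other chromosomes was 0.0429 and 0.0368 on the log2 scale in Q-GL- libraries, against -0.0431 and -0.0347 in Q-GL+ libraries. No other chromosome had a value over 0.0236 in size. The smallest two-sided p that an exact permutation test of 2 against 2 libraries allows is 0.333, so a single value like this one cannot pass such a test. When each library was centred within each chromosome, an alternative added after this was seen, chromosome 1 had 25 higher and 19 lower genes. Rgs4, Serpine2 and Kif21b lie on chromosome 1 and passed there as well. What underlies the shift was not tested. Chromosome 10 had the largest share of calls, with 34 higher and 9 lower of 560 genes tested (7.68%), at a median log2 fold change of 0.04, close to that of all genes.

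**Figure D5:**
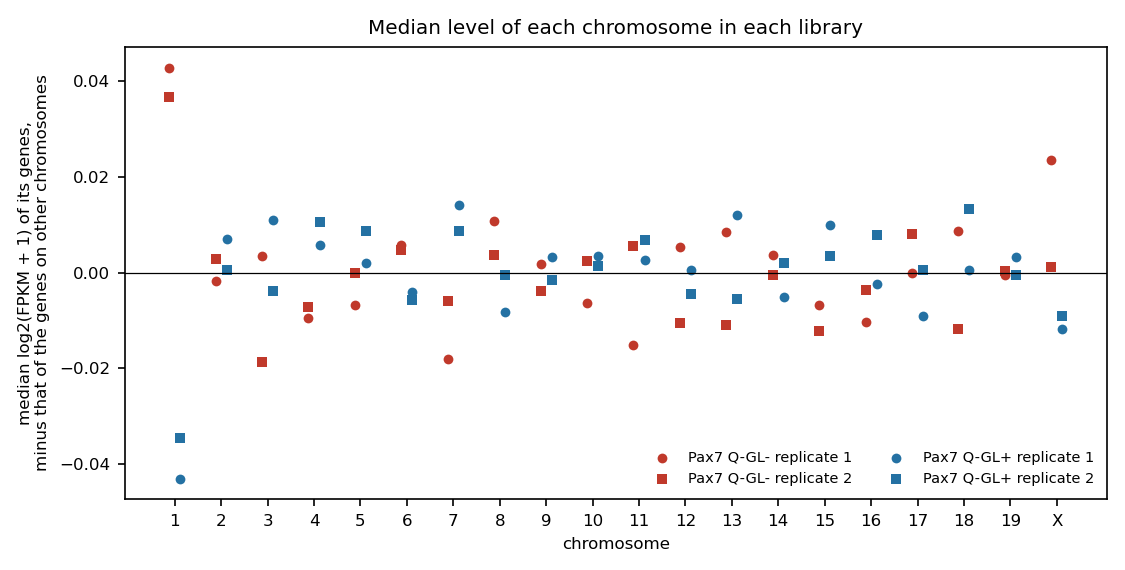
Median level of the genes of each chromosome in each of the 4 libraries, on the log2 scale and relative to the genes on other chromosomes, with Pax7 Q-GL- libraries in red to the left and Pax7 Q-GL+ libraries in blue to the right, circles for replicate 1 and squares for replicate 2. Chromosome 1 lies at 0.0429 and 0.0368 in Q-GL- libraries and at -0.0431 and -0.0347 in Q-GL+ libraries, and the other chromosomes lie within 0.0236 of 0.

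Some calls were neighbours. Of the 522 called genes 92 (17.6%) had another called gene within 100000 bases, against 12.01% of all genes tested that had a called gene within that distance. They formed 52 pairs, of which 38 were both higher, 7 both lower and 7 opposite, and in 6 pairs the gene bodies overlapped. On chromosome 1 the laminin gene Lamb3, at chr1:193207699-193343878, spans G0s2, at chr1:193272161-193273217 on the other strand, and both rose. On chromosome 10, Lama4, at chr10:38965515-39110188, and Tube1, a tubulin gene at chr10:39133976-39152542, rose by 0.65 and 0.63. On chromosome 8, Tmem255b, chosen after its values were seen, overlaps Gas6, and they rose by 0.88 and 1.07. Where bodies overlap, the counted strand decides which gene gets a read, and that setting is not given in the sources used here.

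The promoters of the called genes were searched for letters that Pax7 is known to bind. RefSeq promoter windows on GRCm38.p6 run from 250 bases before to 50 bases after a gene's start, and both strands were read. GTCACG, the core of paired domain sites, was present in 9.51% of 410 windows of genes higher in Q-GL- cells and in 11.9% of 126 windows of genes lower, against 13.8% of the 11624 windows of all genes tested and 8.22% of all 32851 windows. The palindromic site of homeodomain dimers and a composite site that joins a paired and a homeodomain part were in none of the windows of called genes, and in 0.129% and 0.00860% of those of all genes tested. None of the 21 windows found for the genes with the 15 largest changes in each direction held a match to any of the 3. A match is a description and says nothing of binding, which at distant sites lies outside these windows.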

How the data were processed

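RNA-Seq was analysed in 12 libraries, 2 for each of 6 groups of AtT-20 cells. The authors deposited FPKM values, which they derived from strand-specific paired-end reads that were trimmed with Trimmomatic, aligned with TopHat2 to the mouse genome mm10 with Ensembl annotation and quantified with HOMER. The versions of these tools for the RNA-Seq reads, the normalization total and the strand setting of the quantification are not given in the sources used here. Read counts were not used here, so no count model was run and depth is unknown.

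Values were taken as log2(FPKM + 1), for genes that reached 1 FPKM in 2 or more of the 4 libraries compared. The fold changes printed are on this scale, which understates the change of low genes. The main test was a limma-trend fit with the robust option over all 12 libraries, with 1 coefficient per group and the contrast Pax7 Q-GL- minus Pax7 Q-GL+. It was two-sided, with Benjamini-Hochberg adjustment over the 12044 genes tested and a call at an adjusted p under 0.05. The script was tested on simulated data. Tools were R 4.3.3, limma 3.58.1, statmod 1.5.0, Python 3.11.15, pandas 2.3.3, numpy 2.4.6 and matplotlib 3.10.9. A total of 4 columns of values that no label of the samples analysed matched were not used.

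Groups came from the sample labels. Coordinates are on mm10 (GRCm38), with 1 added to the starts in the table, after which 15831 of the 16335 gene IDs found in GENCODE M21 had the same start. Genes with near-identical copies and overlapping or antisense genes are uncertain.

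The genes named were up to 15 per direction with the largest change among calls that averaged 1 FPKM or more in the higher group and whose libraries did not overlap, up to 4 members of each class with the smallest adjusted p, Pax7, Tbx19 and cell type markers, and the 2 highest members of classes with no call. The members and the 76 class lists were chosen with earlier results of these data known. Of these, 4 classes (lipid droplet, monoamine, glucocorticoid and Yippee-like genes) were added, and some name patterns corrected, after their values were seen. Genes outside this rule are Galns, Lgmn, Cpq, Agt, Entpd3, Gimap6, Gimap8, Tlr4, Igfbp5, Tmem255b, Lipc, Cdon, Snord49b and Gm26315, and those that complete a class (Ctsl, Ctsa, Hexa, Glb1, Ccng1, Ddb2, Gadd45a and Phlda3), all named after their values were seen. Some results are not reported here.

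Alternatives were quantile normalization, median centring, a pseudocount of 0.1, no filter, a filter at 5 FPKM or over all 12 libraries, no trend, no robust option, a fit of the 4 libraries alone, a fit without the NoTag libraries, the replicate number as a block, each of the 4 libraries left out, an adjusted p under 0.01 and a log2 fold change of at least 1 in size.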

Additional observations from a re-analysis of the deposited data

How the results depend on the processing

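The count of 522 calls, 382 higher and 140 lower in Q-GL- cells, moved with the scaling and with the libraries used. Quantile normalization gave 967 calls (579 higher, 388 lower), among them 511 of the 522. A fit of the 4 libraries alone gave 912 (634 higher, 278 lower). Median centring gave 725, with 246 lower, and centring within chromosomes, chosen after seeing the data, gave 705, with 261 lower. An adjusted p under 0.01 left 207 (162 higher, 45 lower), and a log2 fold change of at least 1 in size left 41 (37 higher, 4 lower). With 1 of the 4 libraries left out, which leaves its group with 1 library assumed to vary like the other groups, between 182 and 231 genes passed, 130 to 196 higher and 35 to 52 lower. The other alternatives gave between 412 calls (without the NoTag libraries) and 540 (pseudocount of 0.1). The share of calls that were higher was 59.9% with quantile normalization, 63.0% with centring within chromosomes and 84.8% without Q-GL+ replicate 1, against 73.2%. The causes were not tested. The genes followed were all those that the naming rule picked, which are more than the text names. None of them changed sign in a call, and many of them lost the call with 1 library left out. Quantile normalization brought Pax7, Pcna and Tbx19 past the test, all lower in Q-GL- cells. With 2 libraries a group and unknown depth, small differences of low genes may not be detectable.

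The replicate number as a block gave 503 calls (375 higher, 128 lower), 472 of them among the 522. Deviations of same-numbered libraries correlated between -0.177 and 0.196 over 15 pairs of groups, and at -0.018 for Q-GL- with Q-GL+, so the numbers were not taken to pair the samples.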
